A study of Mus musculus with 10 samples.

Results

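Per1, Per2, Per3, Cry1, Cry2, Csnk1d and Csnk1e, the period and cryptochrome repressors of the circadian clock with their casein kinase 1 partners, were followed in mouse fibroblasts moved between 2 temperatures. These 7 genes were taken by symbol from a table of 38087 genes, in all exon and intron columns. Reads were counted in 6 of them, and Per3 was listed at 0 throughout. NIH3T3 is an established mouse embryonic fibroblast line, used here as wild type with no transgene or gene deletion named in the labels. All cells were seeded at 37 °C for 4 h and then kept at one temperature for 16 h before the move. In the downshift the cells went from 38 °C to 33 °C, and in the upshift from 33 °C to 38 °C. Cells were harvested for total RNA directly (0 h) and 1, 3, 6 and 9 h later, which gave 10 samples, 1 for each time in each course.

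The mammalian clock is a transcriptional feedback loop. CLOCK and BMAL1 (the product of Arntl) bind E-box elements and switch on the Per and Cry genes, and the PER and CRY proteins return to the nucleus and block CLOCK-BMAL1. Casein kinases 1 delta and 1 epsilon phosphorylate PER proteins and set their stability, and thereby the speed of the clock. A fresh medium, a serum pulse or a change of temperature can set the phase of fibroblast clocks. Cells moved in opposite directions share the handling and the hours in culture and differ in the direction of the move. A response that follows the temperature should therefore give opposite slopes, and a change common to both courses is here called shared drift. No course was left unshifted. A response that either move would give alike therefore counts as shared drift, and it cannot be told apart from handling or hours in culture.

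E-box letters or those of a variant were found in start regions of Per1, Cry1 and Cry2, and 3 regions are shown because these genes moved differently. Those of Per3 and Csnk1e held neither. Start regions span 250 bases before and 50 after a RefSeq transcript start (GRCm38.p6), and 5 of the 7 genes, all but Per2 and Csnk1d, had an entry. Per1 had 2 such regions and Csnk1e 4. The first Per1 region is shown, and it lies inside the span that GENCODE gives the gene, downstream of that span's start. Capitals mark the E-box CACGTG or its variant CACGTT, read on either strand (so AACGTG in the lines below). The Per1 line is chr11:69098699-69098998 on the plus strand, Cry1 is chr10:85185005-85185304 on the minus strand and Cry2 is chr2:92434020-92434319 on the minus strand, each written 5′ to 3′ along the gene.
Per1: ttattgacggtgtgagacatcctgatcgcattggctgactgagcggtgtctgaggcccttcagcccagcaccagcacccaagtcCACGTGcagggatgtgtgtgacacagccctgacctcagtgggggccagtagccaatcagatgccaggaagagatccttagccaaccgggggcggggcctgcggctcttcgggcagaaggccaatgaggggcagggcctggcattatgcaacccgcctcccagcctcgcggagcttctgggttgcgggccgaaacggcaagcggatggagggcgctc
Cry1: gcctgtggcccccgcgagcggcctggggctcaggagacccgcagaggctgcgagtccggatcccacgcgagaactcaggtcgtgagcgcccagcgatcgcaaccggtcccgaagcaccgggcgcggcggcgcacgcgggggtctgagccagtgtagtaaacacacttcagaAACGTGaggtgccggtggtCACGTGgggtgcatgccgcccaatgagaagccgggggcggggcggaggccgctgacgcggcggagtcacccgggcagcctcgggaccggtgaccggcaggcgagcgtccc
Cry2: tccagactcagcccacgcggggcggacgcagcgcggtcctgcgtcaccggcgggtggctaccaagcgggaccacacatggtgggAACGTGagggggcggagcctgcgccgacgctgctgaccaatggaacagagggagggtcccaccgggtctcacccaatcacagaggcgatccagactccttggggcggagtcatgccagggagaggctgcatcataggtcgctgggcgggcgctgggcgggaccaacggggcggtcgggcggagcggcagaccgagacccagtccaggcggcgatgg
Counted from the RefSeq start, the Per1 region shown holds 1 E-box, at position -166, and the second Per1 region (chr11:69099902-69100201) holds neither the E-box nor the variant. Cry1 holds 1 E-box at -60 and 1 variant at -79, and Cry2 holds 1 variant at -166. Of all 32851 start regions of this length, 7.15% hold CACGTG and 4.68% hold CACGTT. The D-box TTATGTAA, which DBP and its relatives bind, occurs in 0.94% of the regions and stood 2 times in that of Per3, with no match in the other 4 genes. The full cyclic AMP element TGACGTCA (1.79% of regions) and the heat shock element letters GAANNTTC (7.86%) and TTCNNGAA (8.52%) were not found in any region of these 5 genes. A match of letters does not show that a factor binds there.

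For each sample 2 complete columns, taken as estimated read counts, were summed, from numbered series 5 and 11 in the downshift and 2 and 13 in the upshift. The labels do not say what the series numbers stand for, nor that columns or samples are separate cultures, so p-values measure the scatter of these samples about a line in time. Single columns held 22403625 to 48004854 exon reads and 15313374 to 25233405 intron reads. The columns of one sample stood apart for the Per genes: at 0 h of the upshift, Per1 exons had 11.7 CPM (read counts scaled to a common library size) in series 2 and 41.8 in series 13. Each series lies in 1 course only, so values of series 2 and 5 and of series 11 and 13 are given beside member results and, for other genes, where a call was lost. The labels do not link the series of such a pair. The cold-inducible genes Cirbp and Rbm3 checked the labels, with differences between the shifts of 7.35 ± 0.58 and 2.33 ± 0.26 (log2 ± SE, edgeR adjusted p = 7e-05 and 0.00017). The 5 fibroblast markers (Col1a1, Col1a2, Fn1, Sparc and Vim) were all expressed, and all 6 markers of epithelial, immune, endothelial and muscle cells lay below 1 RPKM (CPM per kilobase of exon), with Myod1 at 0.

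By length-corrected level, Csnk1d was the highest of the family, at 33.9 ± 1.7 RPKM (mean ± SD over the 10 samples, exons). Csnk1e followed at 10.6 ± 1.1 RPKM, and the ranges of the kinases did not overlap with each other or with those of the repressors. Cry1 stood at 5.82 ± 1.43 RPKM. Per1 at 3.83 ± 0.92, Per2 at 3.79 ± 1.27 and Cry2 at 3.74 ± 1.202 RPKM had overlapping ranges, which also overlapped that of Cry1, so these 4 have no order beyond their spread. The SD holds the effect of time and temperature. Mean intron levels ran from 0.51 ± 0.12 RPKM for Cry1 to 4.85 ± 0.52 RPKM for Csnk1d. The exact 95% binomial interval of a single sample (Clopper-Pearson, counting error only) reached 1.59 to 7.78% of the value to either side for exons and 1.95 to 12.8% for introns, most for Per1 introns.

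**Figure D1:**
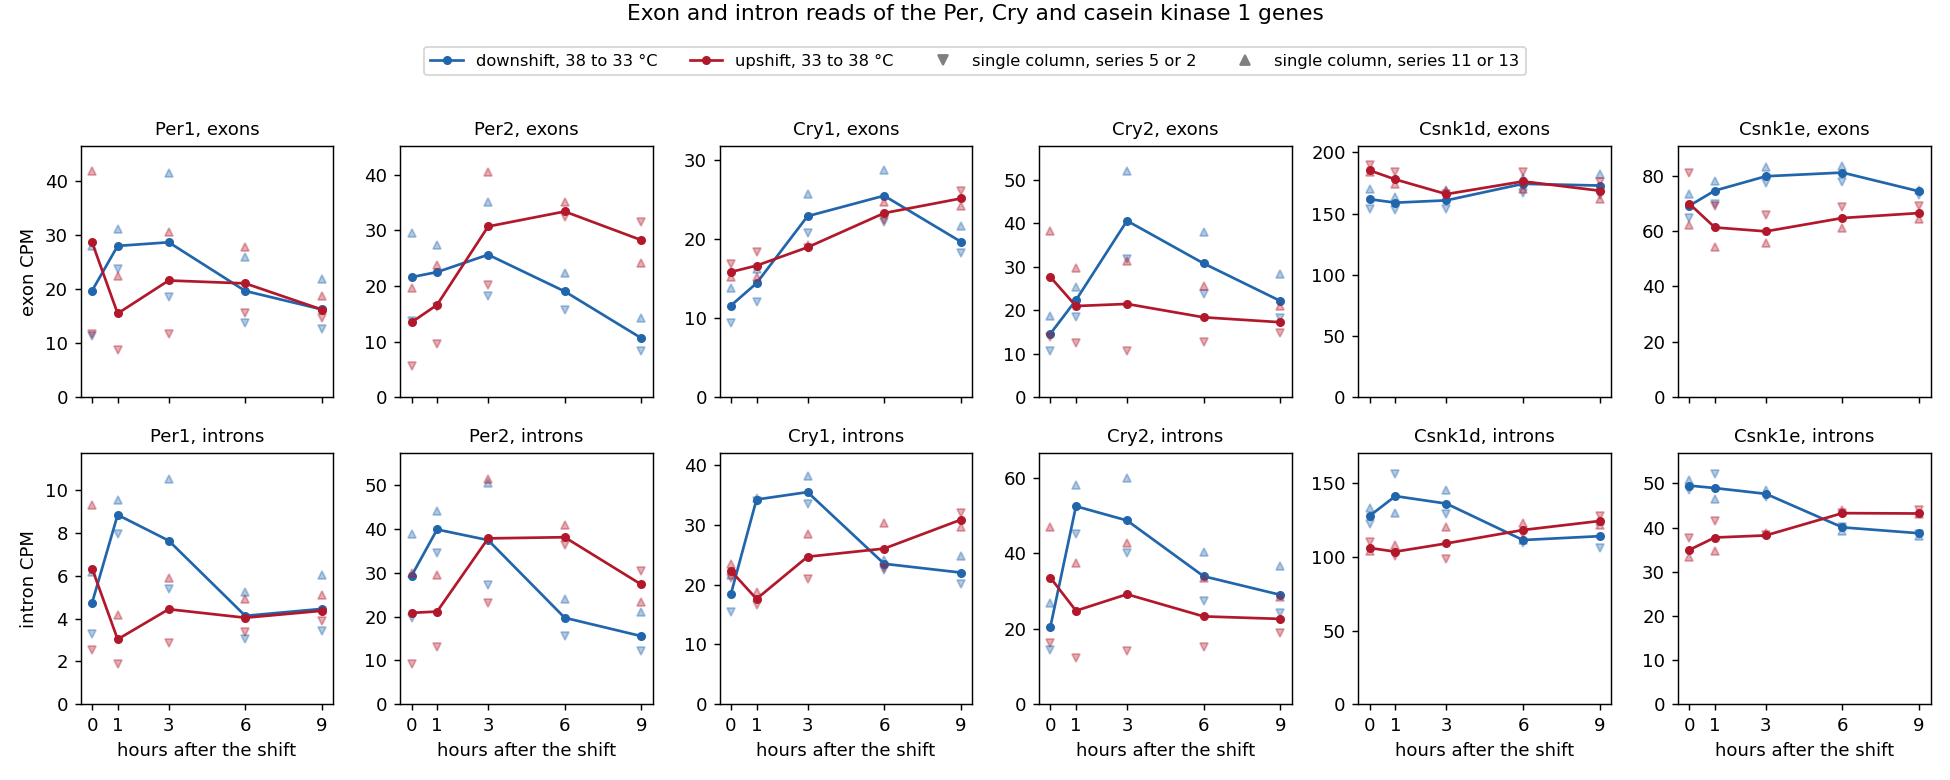
Exon reads (upper row) and intron reads (lower row) of the 6 measured genes in CPM against hours after the shift, in blue for the downshift and red for the upshift. Circles joined by lines are the 10 summed samples and pale triangles the single columns; Per2 exons cross between 1 and 3 h and end at 10.6 CPM in the downshift and 28.2 in the upshift.

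Per2 had fitted slopes of opposite sign in the courses, of which only the rise in the upshift was called. Per2 encodes a core PER repressor that mice need for stable rhythms. The gene lies on the minus strand of chr1:91415982-91459324 (GRCm38, GENCODE M21). In the upshift its exons read 13.5 CPM at 0 h, 16.6 at 1 h, 30.7 at 3 h, 33.4 at 6 h and 28.2 at 9 h. In the downshift they read 21.6, 22.5, 25.6, 19.0 and 10.6 CPM at the same times. At 0 and 1 h the downshift samples were the higher, and at 6 and 9 h the upshift samples, with no overlap in either pair of times. The fitted change from 0 to 9 h was higher by 1.38 ± 0.36 in the upshift (log2 ± SE, edgeR quasi-likelihood adjusted p = 0.0169) and was -0.60 ± 0.37 in the downshift (adjusted p = 0.228). Downshift minus upshift, the slopes differed by -1.99 ± 0.51 (adjusted p = 0.0102). Series 2 and 5 by themselves gave -3.09 ± 0.52 (adjusted p = 0.00123), against -1.35 ± 0.61 in series 11 and 13 (adjusted p = 0.105). The difference over all series no longer passed without the upshift sample at 0 h (-1.82 ± 0.71, adjusted p = 0.0717). It was also lost when the times from 3 h on were set as a step against 0 h. The rise in the upshift did not pass within series 11 and 13 (0.60 ± 0.43, adjusted p = 0.342) or without the upshift sample at 0, 1 or 6 h (1.21 to 1.30, adjusted p = 0.0521 to 0.186). That rise also lost its call on linear hours and with the step.

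Per2 introns, which report unspliced RNA, were called for no change by edgeR. They read 20.9, 21.2, 37.9, 38.1 and 27.4 CPM over the upshift and 29.3, 39.9, 37.5, 19.8 and 15.6 CPM over the downshift. In the downshift the highest intron value came at 1 h and the highest exon value at 3 h. At 6 and 9 h the upshift samples were the higher on introns too. The slopes differed by -1.49 ± 0.61 (edgeR adjusted p = 0.155), and this passed with DESeq2 (adjusted p = 0.0434) and within series 2 and 5 (-2.67 ± 0.61, adjusted p = 0.0269). The shared drift of Per2 exons was 0.39 ± 0.26 (adjusted p = 0.432) and passed within series 2 and 5 alone (1.16 ± 0.26, adjusted p = 0.0265). In the upshift the single columns were unlike: from 0 to 9 h Per2 exons were 5.64-fold higher in series 2 and 1.23-fold higher in series 13.

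Cry1 rose in both courses. It encodes the stronger of the cryptochrome repressors, and lies on the minus strand of chr10:85131700-85185064. Its exons read 11.6, 14.4, 22.9, 25.5 and 19.7 CPM at 0, 1, 3, 6 and 9 h of the downshift. In the upshift they read 15.9, 16.7, 19.0, 23.3 and 25.2 CPM. The values at 3, 6 and 9 h were above those at 0 and 1 h of both courses. The fitted change was 1.06 ± 0.22 in the downshift (edgeR adjusted p = 0.00719) and 0.69 ± 0.21 in the upshift (adjusted p = 0.0305), and the shared drift was 0.87 ± 0.15 (adjusted p = 0.0176). Series 2 and 5 by themselves gave a drift of 0.88 ± 0.17 (adjusted p = 0.0128), against 0.86 ± 0.16 in series 11 and 13 (adjusted p = 0.0590). The size of the drift stayed between 0.74 and 1.08 over 20 alternatives, and 8 of them took the adjusted p above 0.05 (0.0504 to 0.863). Of those, 5 left out 1 sample, at 0, 1 or 6 h of the downshift or 1 or 9 h of the upshift. The downshift change lost its call under 2 of 20 alternatives, without its 0 h sample (0.85 ± 0.35, adjusted p = 0.127) and on linear hours. The upshift change lost its call under 7 of 20, among them series 2 and 5 alone (0.59 ± 0.23, adjusted p = 0.0733) and leaving out its sample at 0, 1, 6 or 9 h (0.63 to 0.88, adjusted p = 0.0776 to 0.123).

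The slopes of Cry1 differed by 0.37 ± 0.30 (adjusted p = 0.334). Without the downshift sample at 9 h, where Cry1 was lower than at 6 h, they differed by 0.78 ± 0.21 (adjusted p = 0.0179). Introns of Cry1 took another course. They read 18.5, 34.3, 35.5, 23.5 and 22.0 CPM in the downshift and 22.3, 17.6, 24.7, 26.0 and 30.9 CPM in the upshift, so the highest values came at 1 and 3 h of the downshift. Their shared drift was 0.27 ± 0.26 (adjusted p = 0.806).

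Cry2, the second cryptochrome, showed a transient in the downshift. The gene lies on the minus strand of chr2:92403646-92434043, where D930015M05Rik overlaps it on the other strand. Exons read 14.6, 22.4, 40.6, 30.8 and 22.2 CPM in the downshift and 27.7, 20.99, 21.5, 18.4 and 17.3 CPM in the upshift. The downshift sample at 3 h was the highest of the 10, and the downshift sample at 0 h the lowest. Introns read 20.6, 52.5, 48.7, 33.9 and 29.0 CPM in the downshift and 33.6, 24.8, 29.2, 23.3 and 22.6 CPM in the upshift. They were 2.55-fold higher at 1 h than at 0 h of the downshift (3.16-fold in series 5 and 2.17-fold in series 11), while exons were 2.77-fold higher at 3 h (3.01-fold and 2.77-fold). The fitted difference between the shifts, which assumes a steady slope, was 1.36 ± 0.55 on exons (edgeR adjusted p = 0.0644) and 0.82 ± 0.65 on introns (adjusted p = 0.457). The exon difference passed when the times from 3 h on were set as a step against 0 h (1.57 ± 0.38, adjusted p = 0.0238), within series 11 and 13 (1.63 ± 0.56, adjusted p = 0.0418), and without the downshift sample at 3 h (1.27 ± 0.29, adjusted p = 0.00681) or at 9 h (2.04 ± 0.45, adjusted p = 0.00715). Within series 2 and 5 it was 0.86 ± 0.58 (adjusted p = 0.270). With that step the introns passed as well, for the difference (1.48 ± 0.33, adjusted p = 0.0146) and in the downshift (0.98 ± 0.24, adjusted p = 0.0405).

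Per1, which responds to many stimuli as an early gene, lies on the plus strand of chr11:69095217-69109960. Its exons read 19.7, 28.0, 28.7, 19.7 and 16.3 CPM in the downshift and 28.7, 15.5, 21.6, 21.1 and 16.2 CPM in the upshift. Introns read 4.74, 8.84, 7.64, 4.13 and 4.45 CPM in the downshift and 6.33, 3.03, 4.44, 4.04 and 4.36 CPM in the upshift. The courses overlapped over most of their range. From 0 to 1 h they moved apart, with exons 1.42-fold higher in the downshift and at 0.54 of the 0 h value in the upshift. Introns were 1.87-fold higher and at 0.48, and each single column had the same direction. These are single samples with no test, and the fitted slopes assume a steady change. The slopes differed by 0.12 ± 0.49 (adjusted p = 0.860) and the shared drift was -0.29 ± 0.24 (adjusted p = 0.551). The columns of the upshift were unlike here too: from 0 to 9 h Per1 exons were 1.25-fold higher in series 2, and in series 13 they stood at 0.45 of the 0 h value. The slopes differed by -0.80 ± 0.57 in series 2 and 5 (adjusted p = 0.293), against 0.51 ± 0.52 in series 11 and 13 (adjusted p = 0.457).

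In the first hour of the downshift, introns of all 4 measured repressors were further above their 0 h level than exons. From 0 to 1 h, introns were 1.87-fold higher for Per1, 1.36-fold for Per2, 1.85-fold for Cry1 and 2.55-fold for Cry2. Exons over the same hour were 1.42-fold, 1.04-fold, 1.24-fold and 1.53-fold higher. Introns of Csnk1d also gained on its exons in that hour, and those of Csnk1e did not. Only Cry2 passed 2-fold on introns, 1 of 6 members, where 0.663% of 9347 genes did, and in the first hour of the upshift no member did (1.44% of genes). Only rises were counted, and Per1 introns stood at 0.48 of their 0 h value after that hour of the upshift. From 0 to 3 h, exons passed 2-fold for Cry2 in the downshift (0.521% of genes) and for Per2 in the upshift (0.786% of genes), at 2.28-fold. These are single samples with no test, and the times were chosen after the values were seen. All folds of a course share its 0 h sample.

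The ratio of exon to intron reads had its lowest downshift value at 1 h for each of the 4 repressors. The same held for Csnk1d in the summed samples, but not for Csnk1e, so this dip was not particular to the repressors. The ratio was 4.17 at 0 h and 3.17 at 1 h for Per1, 0.74 and 0.56 for Per2, 0.63 and 0.42 for Cry1, and 0.71 and 0.43 for Cry2. Series 5 and series 11 each had the lowest of their 5 values at 1 h for all 4 repressors. Each kinase did so in series 5 but not in series 11. Over all genes, 11.6% of 9331 had their lowest value at 1 h in both series, and the median change of the ratio over this hour was 0.02 (log2). In series 10, which holds only 1 and 3 h of the downshift, the ratio was lower at 1 h than at 3 h for all 6 measured members, kinases included, and for 28.9% of 9341 genes. It was 0.42 against 0.78 for Cry2 and 1.00 against 1.04 for Csnk1d. In the upshift no member had its lowest ratio at 1 h in both columns (11% of genes).

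**Figure D2:**
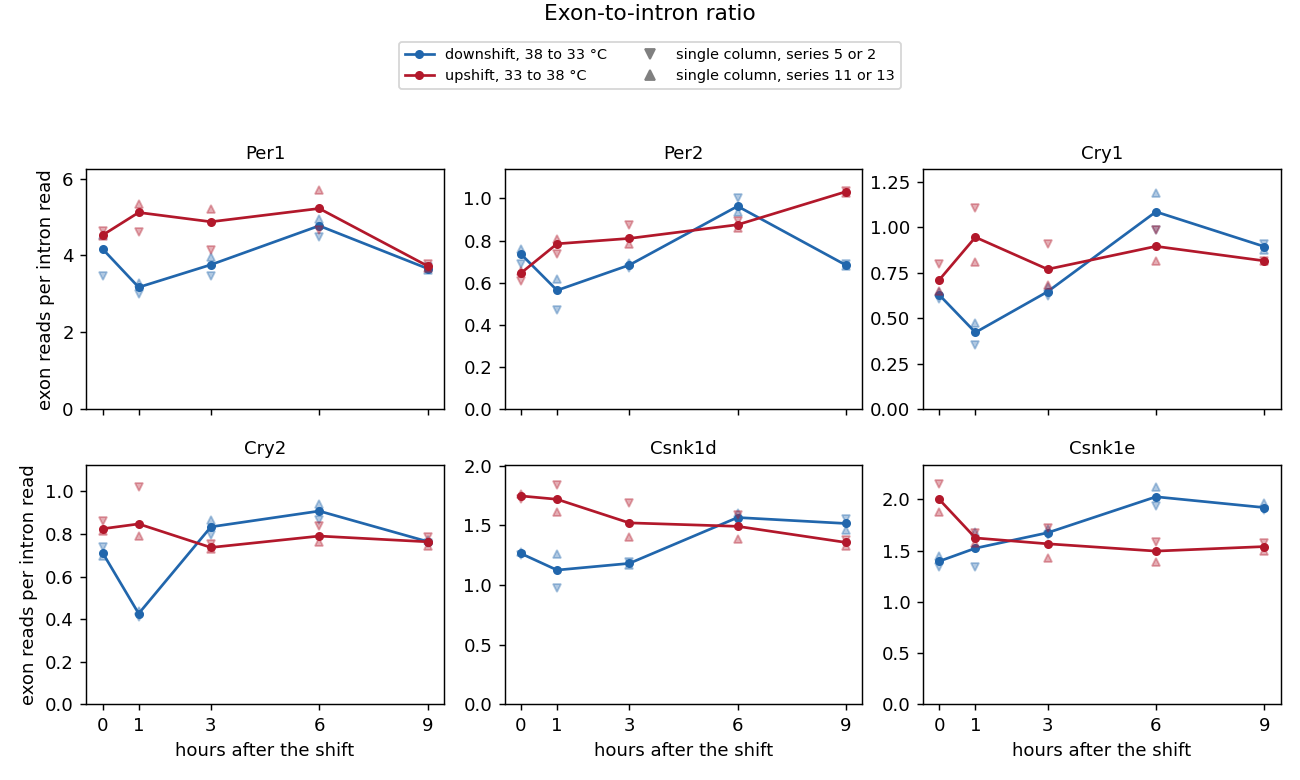
Exon reads per intron read against hours after the shift for the 6 measured genes, with downshift in blue, upshift in red and single columns as pale triangles. The 4 repressors and Csnk1d have their lowest downshift value at 1 h, with Cry2 at 0.43. The lines of Csnk1e cross between 1 and 3 h and those of Csnk1d between 3 and 6 h.

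The kinase genes were steadier. Csnk1d (casein kinase 1 delta, chr11:120961749-120991330, minus strand, antisense to Gm28192) ranged over 1.17-fold among the 10 samples on exons and Csnk1e over 1.35-fold, against 1.85-fold for Per1 and 3.14-fold for Per2. Csnk1d exons read 162, 159, 161, 174 and 173 CPM in the downshift and 185, 178, 166, 176 and 169 CPM in the upshift. The courses overlapped. The slopes differed by 0.26 ± 0.10 (edgeR adjusted p = 0.0485), a small change at the edge of the threshold that did not pass under 14 of 21 alternatives. Series 2 and 5 gave 0.22 ± 0.14 (adjusted p = 0.233), series 11 and 13 gave 0.31 ± 0.10 (adjusted p = 0.0410), and blocking on the hour gave 0.26 ± 0.09 (adjusted p = 0.0614).

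Csnk1e (casein kinase 1 epsilon, chr15:79417856-79455566, minus strand, antisense to Gm16059) read 69.1, 74.5, 79.7, 81.1 and 74.3 CPM on exons in the downshift. It read 69.8, 61.3, 59.9, 64.7 and 66.5 CPM in the upshift. From 1 h on all downshift samples were above all upshift samples, and the fitted difference of slopes was 0.25 ± 0.14 (adjusted p = 0.181). The columns disagreed at 0 h, where the downshift over the upshift was -0.32 (log2) in series 2 and 5 but 0.23 in series 11 and 13.

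Exon and intron reads of both kinases moved apart. Csnk1e introns read 49.5, 48.9, 47.6, 40.04 and 38.7 CPM in the downshift and 34.9, 37.7, 38.2, 43.3 and 43.2 CPM in the upshift. Csnk1e had 1.40 exon reads per intron read at 0 h and 1.92 at 9 h of the downshift, and 1.999 and 1.54 in the upshift. Csnk1d introns read 128, 141, 136, 111 and 114 CPM in the downshift and 106, 103, 109, 118 and 124 CPM in the upshift. Csnk1d had 1.26 exon reads per intron read at 0 h and 1.52 at 9 h of the downshift, and 1.75 and 1.36 in the upshift. At 0 h the lower ratio was that of the cells held at 38 °C for both kinases, and at 9 h it was again that of the cells at 38 °C.

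The difference between the shifts in this ratio was 0.91 ± 0.21 for Csnk1e (edgeR adjusted p = 0.00845) and 0.73 ± 0.20 for Csnk1d (adjusted p = 0.0217). The median gene was at 0.25 on the scale used, on which intron reads were scaled like exon reads, and 1282 genes were higher and 185 lower. With intron reads on their own scale the median moved by 0.26 to -0.01 and the split was 408 higher and 346 lower. Csnk1e was then at 0.64 ± 0.20 (adjusted p = 0.0620) and Csnk1d at 0.47 ± 0.19 (adjusted p = 0.133), so neither passed. Within series 2 and 5, Csnk1e was at 1.01 ± 0.25 (adjusted p = 0.0270) and Csnk1d at 0.80 ± 0.32 (adjusted p = 0.140). Within series 11 and 13, they were at 0.85 ± 0.26 (adjusted p = 0.0784) and 0.70 ± 0.24 (adjusted p = 0.108). With a block for each hour, they were at 0.90 ± 0.25 (adjusted p = 0.0608) and 0.73 ± 0.23 (adjusted p = 0.0857). Without the upshift sample at 0 h, they were at 0.66 ± 0.25 (adjusted p = 0.1096) and 0.81 ± 0.26 (adjusted p = 0.0665).

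The counts of called members are set here against the share of all genes called in the same comparison. The exon difference between the shifts was called for 1 higher (Csnk1d) and 1 lower (Per2) of 6 members, where 46.9% of 10174 genes were called, and its median was 0.26 for the members and 0.02 for all genes. The exon change was called for 1 member in the downshift (32.6% of genes) and for 2 in the upshift (33.5% of genes). Shared drift was called for 1 of 6, Cry1, where 3.2% of genes were called. With drift allowed any shape in time no member was called, Per2 being nearest (adjusted p = 0.129), and 0.236% of genes were. Per2 passed that test with DESeq2 (adjusted p = 6.2e-07) and in series 11 and 13 (adjusted p = 0.0498), and Cry1 with DESeq2 (adjusted p = 0.000403), which called 427 genes against 24 by edgeR. On introns no member was called for the difference (7.43% of genes, and 2 of 6 members, Per2 and Csnk1e, at an unadjusted p under 0.05, as were 25.8% of genes) or for drift, for which edgeR called 0% of 9351 genes (890 genes at an unadjusted p under 0.05, and 150 by DESeq2). The ratio difference was called for 2 of 6 (15.7% of genes). In single courses the ratio was called for none of 6 in the downshift (3.21% of genes, Csnk1e at an adjusted p of 0.0510) or the upshift (2.98% of genes).

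**Figure D3:**
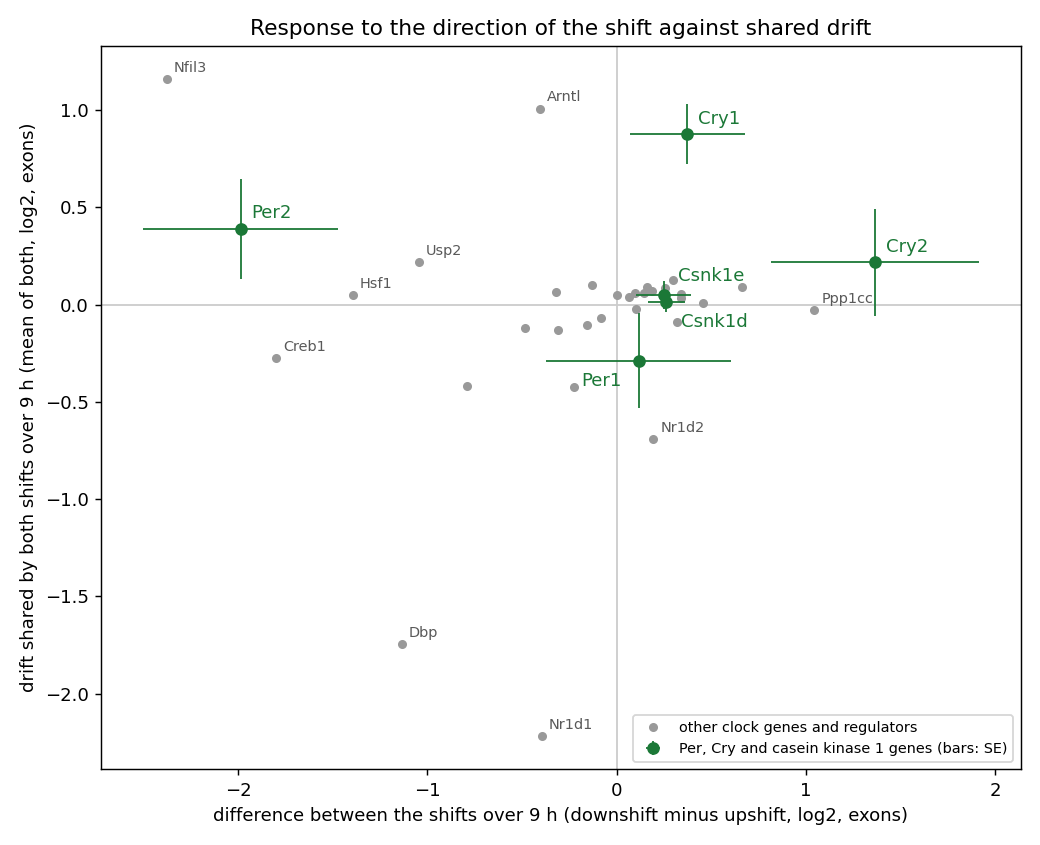
Difference between the shifts over 9 h (horizontal axis, downshift minus upshift, log2) against the drift shared by both courses (vertical axis, mean of both, log2), on exon reads. Green points with SE bars are the 6 measured members and grey points the 31 other listed clock genes and regulators; Per2 lies far to the left, Cry2 to the right with a wide bar, and Cry1 high at 0.87.

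The part of each profile that both courses share was described by splitting the sum of squares of its exon log2 CPM over the 10 samples. For Cry1, 81.9% went with time shared by the courses, 2.91% with course and 15.2% with course by time. For Per2 the shared part was 33.5% and course by time 59.1%, and for Cry2 27.8% and 63.5%. Per1 lay between these, with 43.7% and 52.6%. For Csnk1e 67.4% went with course, and Csnk1d split into 26.8% for shared time, 31.6% for course and 41.6% for course by time. The median gene had 14.9% for shared time, 26.4% for course and 45.5% for course by time. The shared part of Cry1 was 60.7% in series 2 and 5 but 89.1% in series 11 and 13, the largest of the 6 in each. That of Per1 was 12.1% and 67.8%. For Per2 the shared part was 39.8% and course by time 58.2% in series 2 and 5, but 61.9% and 34.6% in series 11 and 13. The course part of Csnk1e was 3.36% and 85.4%, and that of Csnk1d 68.4% and 1.01%. For Cry2 the shared part was 18.7% and the course part 36.5% in series 2 and 5, but 36.8% and 1.35% in series 11 and 13. The splits of Per1, Per2, Cry2, Csnk1e and Csnk1d thus rest on the choice of columns.

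**Figure D4:**
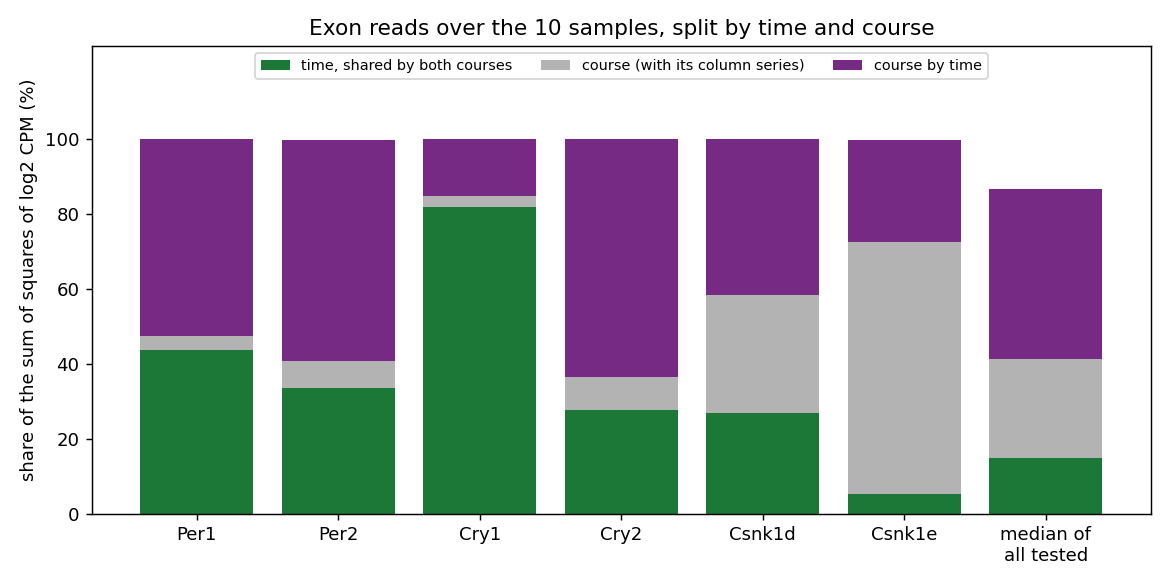
Stacked bars of the share of the sum of squares of exon log2 CPM that went with time (green), course (grey) and course by time (purple) for each measured gene; the last bar stacks the medians over all tested genes, which need not add to 100%. Green fills most of the bar of Cry1 (81.9%) and little of that of Csnk1e (5.27%).

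Levels at the same temperature, reached from either side, separate Per2 from Cry1. After 16 h at 38 °C Per2 exons read 21.6 CPM, and 9 h after arrival at 38 °C they read 28.2 CPM. At 33 °C they read 13.5 CPM and 10.6 CPM. Both values at 38 °C were thus above both at 33 °C, also in series 2 and 5 (13.5 and 31.1 against 5.52 and 8.23 CPM) and again in series 11 and 13 (29.7 and 24.1 against 19.8 and 14.4 CPM). The order depends on which series are paired. At 0 h Per2 read 13.6 CPM in series 5 (38 °C) but 19.6 in series 13 (33 °C), so that pairing breaks it. Series 11 beside series 2 kept it, with 29.5 and 31.5 CPM at 38 °C against 5.59 and 14.2 CPM at 33 °C. Cry1 read 11.6 and 25.2 CPM at 38 °C and 15.9 and 19.7 CPM at 33 °C, so its values parted by time and not by temperature. Cry2 was higher at 33 °C than at 38 °C at 0 h, with 27.7 against 14.6 CPM, and at 9 h, with 22.2 against 17.3 CPM. That order held in series 2 and 5 and in series 11 and 13, but other pairings broke it. At 0 h Cry2 read 18.8 CPM in series 11 (38 °C) but 13.9 in series 2 (33 °C). At 9 h it read 18.3 CPM in series 5 (33 °C) but 21.05 in series 13 (38 °C). Per1 read 19.7 and 16.2 CPM at 38 °C and 28.7 and 16.3 CPM at 33 °C. These are 1 sample each with no test.

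Among the other genes of the loop, shared drift along the fitted slope was called for 3, beside 3.2% of all genes. Nr1d1, which encodes the repressor REV-ERB alpha and is itself driven by E-boxes, fell in both courses (adjusted p = 0.00424 and 0.00837), from 96.0 to 21.9 CPM in the downshift and from 102 to 19.3 CPM in the upshift, with a shared drift of -2.22 ± 0.32 (edgeR adjusted p = 0.00809). Dbp, a PAR-bZIP activator of D-box genes, went from 66.6 to 11.4 CPM in the downshift and from 60.6 to 16.8 CPM in the upshift (drift -1.75 ± 0.36, adjusted p = 0.0323), and in the upshift alone it did not pass (adjusted p = 0.101). Its difference between the shifts was -1.135 (edgeR adjusted p = 0.2285) and passed under 3 of 21 alternatives. These included series 2 and 5 alone (-2.345 ± 0.84, adjusted p = 0.048), against -0.66 ± 0.73 in series 11 and 13 (adjusted p = 0.505). Nfil3, which competes with DBP for the D-box, had a drift of 1.16 ± 0.24 (adjusted p = 0.0302), with exons at 7.58 and 7.94 CPM at 0 and 9 h of the downshift and at 3.19 and 16.1 CPM in the upshift. Its change was -0.03 ± 0.32 in the downshift (adjusted p = 0.951) and 2.35 ± 0.35 in the upshift (adjusted p = 0.00135), so its drift was the mean of unequal courses. Arntl, which REV-ERB represses, read 12.4 and 24.8 CPM at the ends of the downshift and 14.3 and 29.7 CPM at those of the upshift, and did not pass (drift 1.01 ± 0.32, adjusted p = 0.118). Its drift was 0.18 ± 0.33 in series 2 and 5 (adjusted p = 0.772), against 1.60 ± 0.32 in series 11 and 13 (adjusted p = 0.0712). It passed under 2 of 20 alternatives, on linear hours and without the upshift 0 h sample. Clock had a drift of 0.06 ± 0.08 (adjusted p = 0.706), and Nr1d2, a second Rev-erb gene, one of -0.69 ± 0.23 (adjusted p = 0.132). Nr1d2 passed with DESeq2 and on linear hours. Dbp did not pass within series 2 and 5 (-1.01 ± 0.42, adjusted p = 0.163), nor did Nfil3 (1.06 ± 0.29, adjusted p = 0.0510). The drift call was lost under 8 of 20 alternatives for Dbp, 10 for Nfil3 and 1 for Nr1d1. For Dbp and Nfil3 these included leaving out the sample at 1, 6 or 9 h of either course, and for Nfil3 also the upshift 0 h sample. Tef, another PAR-bZIP gene, was at -0.43 ± 0.20 (adjusted p = 0.264). With drift allowed any shape in time, 3 of these genes were among the 24 called (0.236% of all genes): Dbp (edgeR adjusted p = 0.0125), Tef (adjusted p = 0.0217) and Nr1d2 (adjusted p = 0.0242).

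Of 42 other listed clock genes and regulators of PER and CRY, 40 were in the tables and 31 were tested. Shared drift was called for 1 higher and 2 lower (those above), beside 3.2% of all genes. The difference between the shifts was called for 4 higher and 6 lower (46.9% of all genes), with a median of 0.00199. On introns 2 were lower and none higher (7.43% of genes). On the exon-to-intron ratio 5 were higher and none lower (15.7% of genes), with a median of 0.23, against 0.25 for all genes. Among the other kinases and phosphatases of PER and CRY, 12 of 13 genes were tested. Of these, 4 were relatively higher in the downshift and 1 lower, beside the 46.9% of all genes called for the exon difference. Ppp1cc, a catalytic subunit of protein phosphatase 1, went from 71.8 to 99.9 CPM in the downshift and from 94.97 to 72.2 CPM in the upshift, a difference of 1.04 ± 0.12 (adjusted p = 0.000170). Csnk2a1, casein kinase 2 alpha, differed by 0.66 ± 0.10 (adjusted p = 0.000666), Gsk3b by 0.46 ± 0.11 (adjusted p = 0.00703), the AMP-activated kinase gene Prkaa1 by 0.34 ± 0.09 (adjusted p = 0.0114) and Csnk1g1 by -0.48 ± 0.14 (adjusted p = 0.0187). Ppp1cc and Csnk2a1 passed in each pair of series. In series 11 and 13 Gsk3b (0.39 ± 0.21, adjusted p = 0.162) and Csnk1g1 (-0.33 ± 0.18, adjusted p = 0.184) did not, and in series 2 and 5 Prkaa1 did not (0.30 ± 0.16, adjusted p = 0.159). These 3 also lost the call without the 0 h sample of either course (adjusted p = 0.0577 to 0.163), and Csnk1g1 without the downshift 9 h sample (adjusted p = 0.0546). Csnk1a1 (0.10 ± 0.11, adjusted p = 0.493) and Csnk2b (0.07 ± 0.09, adjusted p = 0.567) did not pass.

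Of the listed genes that govern turnover of the repressor proteins, 2 of 4 were tested. Usp2, a deubiquitinase, differed between the shifts by -1.05 ± 0.37 (edgeR adjusted p = 0.0410). It was at -2.08 ± 0.38 in series 2 and 5 (adjusted p = 0.00175) but at -0.07 ± 0.40 in series 11 and 13 (adjusted p = 0.904). The call was lost under 11 of 21 alternatives, 7 of them leaving out 1 sample, any but those at 3 h and the upshift 0 h sample. Fbxw11, a ligase subunit for PER, was at 0.15 ± 0.13 (adjusted p = 0.390). Bhlhe41, another repressor of CLOCK-BMAL1, was at -0.79 ± 0.27 (adjusted p = 0.0370), with -1.36 ± 0.37 in series 2 and 5 (adjusted p = 0.0147) but -0.46 ± 0.29 in series 11 and 13 (adjusted p = 0.238). Its call was lost under 9 of 21 alternatives, among them leaving out the sample at 1, 6 or 9 h of the downshift or 0, 1 or 6 h of the upshift (adjusted p = 0.0606 to 0.183). Bhlhe40 was at -0.16 ± 0.31 (adjusted p = 0.705). None of the 3 tested partners in the PER-CRY complex passed, with Timeless at 0.16 ± 0.27 (adjusted p = 0.648), Nono at 0.00 ± 0.08 (adjusted p = 0.986) and Wdr5 at 0.32 ± 0.12 (adjusted p = 0.0535). Wdr5 passed under 4 of 21 alternatives, among them series 2 and 5 alone (0.65 ± 0.17, adjusted p = 0.0117), and was at -0.13 ± 0.14 in series 11 and 13 (adjusted p = 0.505).

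Of the factors known to act on Per promoters in acute responses, 2 of 5 tested were called for the difference between the shifts, beside 46.9% of all genes. Hsf1, the heat shock factor, went from 82.0 to 52.7 CPM in the downshift and from 56.7 to 89.1 CPM in the upshift, a difference of -1.39 ± 0.17 (edgeR adjusted p = 0.000227). Creb1, which binds cyclic AMP elements, read 64.0 and 37.4 CPM at 0 and 9 h of the downshift and 39.6 and 59.3 CPM at those of the upshift, a difference of -1.80 ± 0.48 (adjusted p = 0.0121), which did not pass without the upshift sample at 0 h (-1.27 ± 0.60, adjusted p = 0.126). Neither Crtc2 (0.19 ± 0.14, adjusted p = 0.278) nor Srf (-0.31 ± 0.45, adjusted p = 0.595) passed.

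For each measured member the tested genes with the most similar exon profile were found by Pearson's r of log2 CPM over the 10 samples, the highest values among 10174 genes, as a description. Per2 was most like Tars (0.96), Nudcd1 and Umps (both 0.95), and Cry2 like Wdr43 (0.98), Zfp710 (0.96) and Mki67ip (0.94). Cry1 was most like Mppe1 (0.94), Cdc42se1 (0.93) and Bpifc (0.90), and Per1 like Smad7 and Zcchc3 (both 0.91) and Cdc42ep1 (0.88). Csnk1e was most like Sephs2 (0.99), Mbip and Gata2 (both 0.98), and Csnk1d like Rab24 and Megf9 (both 0.94) and Ebf1 (0.93). No member was among the nearest 3 of another. The points share libraries, times and column series.

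Per3 could not be followed. It lies on the minus strand of chr4:151003652-151044665, within the span of Camta1 (chr4:150917322-151861876, same strand), and was listed at 0 in all 44 exon and intron columns. Vamp3, a SNARE gene within the same span, was also listed at 0 in 44 of 44 columns, while Camta1 held 232709 intron reads over all columns. Whether reads in these genes were assigned to Camta1 was not tested, so the 0 is not taken as a lack of Per3 RNA.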

How the data were processed

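Per the labels' protocols, ribosomal RNA was removed from total RNA of NIH3T3 cells, and paired reads that keep the strand were sequenced. The submitters' processing notes name STAR, bedtools and mm10, without versions. The counting of reads shared by several genes is not stated there. The authors' deposited tables are named for RPKM, but their values were taken as estimated counts. Column totals differ, and where exon and intron values are both above 0, 5.3% of exon values but 18.7% of exon-plus-intron sums are whole (tolerance 1e-06). These features do not settle that the values are counts. All values were rounded to whole numbers.

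The members and gene lists were chosen with earlier results of these data known, and 1 listed gene is not reported here. The title of 1 sample has a mistyped temperature, and its description puts it in the upshift. Each sample is the sum of its columns, and a log offset, set gene by gene, corrects for the proportion of each series. Counts were fitted in edgeR 4.0.16 (R 4.3.3) by the quasi-likelihood test with TMM scaling. Each course had its own start level and its own slope against log2(h + 1). Changes are slopes scaled to 9 h, on the log2 scale, with an SE from the F statistic. Shared drift is the mean of both slopes, and drift of any shape used time as a factor. Genes needed a mean exon RPKM of at least 1 (10174 genes), and tests that use intron reads asked besides for 0.05 RPKM in introns (9351 genes). Adjusted p-values follow Benjamini and Hochberg over all genes tested, and a gene was called below 0.05. Lengths and positions came from GENCODE M21, which matched 36308 genes (95.3%). The CPM of exons and introns printed are on the exon TMM scale and carry no offset, so they move with the mix of columns. Named were all 7 members, other listed clock genes called for the exon difference or drift with up to 2 uncalled per list, and the 3 genes most like each member. The fit was tested on simulated data. Alternatives included DESeq2 1.42.0, limma 3.58.1 on log2(RPKM + 0.1), each pair of series alone and leaving out each sample.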

Additional observations from a re-analysis of the deposited data

Results flagged for a closer look

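Several changes differed between the downshift and the upshift by a test of the difference itself (edgeR quasi-likelihood, adjusted p below 0.05, downshift minus upshift, log2 over 9 h). Among the members these were Per2 exons at -1.99, Csnk1d exons at 0.26, the exon-to-intron ratio of Csnk1d at 0.73 and that of Csnk1e at 0.91. Among the other clock genes and regulators the exon difference was 1.04 for Ppp1cc, 0.66 for Csnk2a1, 0.46 for Gsk3b and 0.34 for Prkaa1. It was -2.38 for Nfil3, -1.80 for Creb1, -1.39 for Hsf1, -1.05 for Usp2, -0.79 for Bhlhe41 and -0.48 for Csnk1g1. Of all tested genes, 4772 of 10174 differed in this way, so such a difference was common.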

How the results depend on the processing

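Of 3633 alternative values for 177 single-gene results with a test, 3429 stayed on their side of the threshold, 154 lost the call and 50 gained it. No called value turned its sign, but 171 values of 75 results that passed neither as reported nor under the alternative did, such as the Per1 exon difference (0.12, from -0.80 to 0.64). Counts of called genes moved more. As a step from 0 h to the times from 3 h on, the exon difference was called for 2505 genes (4772 as reported), exon drift for 0 (326), the downshift for 353 (3314), the upshift for 607 (3412), the intron difference for 2063 (695) and the ratio difference for 755 (1467). On linear hours these were 626 for exon drift, 141 for the intron difference, 84 for intron drift (0 as reported) and 954 for the ratio difference. DESeq2 called 883 genes for exon drift, 427 for exon drift of any shape (24 as reported), 1352 for the intron difference, 150 for intron drift and 75 for intron drift of any shape (0 as reported, 239 at an unadjusted p under 0.05). Series 2 and 5 alone called 730 for exon drift, 65 and 1 for exon and intron drift of any shape, 119 for intron drift and 568 for the ratio difference. Series 11 and 13 alone called 34 for exon drift, 2135 for the downshift, 11 and 2 for exon and intron drift of any shape, 326 for the intron difference, 6 for intron drift and 334 for the ratio difference. Without the RPKM filter 1104 genes were called for the intron difference. Limma called 9 for exon drift of any shape, leaving out the series offset 2 for intron drift, and adding series 10 called 1 for intron drift of any shape. With the time point as a replicate block 0 genes were called for the intron difference and 540 for the ratio difference. The block absorbs shared drift and single courses, and values for those could not be had. With introns on their own scale, an alternative chosen after seeing the data, 754 were called for the ratio difference. The cause of these moves was not tested.

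Leaving out 1 sample at a time gave 76 to 509 genes for exon drift (lowest without the downshift 9 h sample, highest without the upshift 0 h sample), 1584 to 3570 for the downshift (lowest without its 0 h sample, and also past 1.5 times lower without its 6 or 9 h sample), 1896 to 3531 for the upshift (lowest without its 0 h sample, then its 6 h sample), 6 to 35 for exon drift of any shape, 144 to 1063 for the intron difference (without the downshift 0 h and the upshift 1 h sample), 0 to 591 for intron drift and 0 to 152 for intron drift of any shape (both highest without the upshift 0 h sample), and 723 to 1431 for the ratio difference (lowest without the downshift 6 h sample). The level of Csnk1e at 0 h, downshift over upshift, was -0.02 (log2) with all columns and 0.23 with series 11 and 13. Depth limits Per1 introns most, with 242 to 644 reads per sample.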

Other observations

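Series 10, which holds only 1 and 3 h of the downshift and entered only the alternative fits that add it, gave the repressors higher exon values than the summed samples at both times. Cry2 exons read 28.9 and 50.0 CPM at 1 and 3 h, and introns 68.5 and 63.9 CPM. Cry1 read 16.1 and 26.6 CPM on exons and 45.0 and 48.3 CPM on introns. Per1 exons read 41.7 and 46.1 CPM and Per2 exons 29.9 and 39.8 CPM. There is no 0 h column in this series, so no change from the start can be given. With it added, the difference between the shifts was -1.98 ± 0.53 for Per2 (edgeR adjusted p = 0.0121) and 1.34 ± 0.55 for Cry2 (adjusted p = 0.0711).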
